A study of Homo sapiens with 8 samples.

Results

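LUHMES cells are an established human mesencephalic line, held in a dividing state by a v-myc transgene that tetracycline shuts off, and they become post-mitotic neurons of dopaminergic character once differentiated. The vehicle libraries of the series were examined here on their own, as a baseline transcriptome of these neurons: 4 of the 8 libraries, chosen by their label and not by any measured value. The genotype label is WT. The cells were differentiated for 6 days in medium that held tetracycline (1 µg/mL), GDNF (2 ng/mL), L-glutamine (2 mM) and dbcAMP (1 mM), and then received the DMSO solvent for 8 h. The other 4 libraries, from cells given oligomycin (10 µM) together with antimycin A (25 µM), were not used, so no treatment is compared. The titles number the differentiations 2 to 5, and these numbers name the replicates below. The submitters describe 4 independent batches with technical replicates within each, and the tables used hold 1 library per number, so n is 4 throughout. All 4 share the same cell line and protocol, so the spread over them says nothing about other lines or donors.

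Midbrain dopaminergic neurons make dopamine from tyrosine with tyrosine hydroxylase (TH) and aromatic amino acid decarboxylase (DDC), load it into vesicles with the monoamine transporter SLC18A2, and take it back up with the dopamine transporter SLC6A3. Their identity in the midbrain is set by transcription factors such as LMX1A, FOXA2, EN1, OTX2, NR4A2 and PITX3. A neuron that has just left the cell cycle also switches many gene families from a progenitor form to a neuronal form, among them splicing factors, chromatin subunits, chloride transporters and metabolic enzymes. Levels below are in TPM, in which reads are divided by transcript length and scaled to the same total in each library, so that genes can be compared within a library. Where 4 values follow each other they belong to replicates 2, 3, 4 and 5 in that order, and ± is the SD over these 4 libraries.

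The libraries held between 93717712 and 110020746 estimated reads. Transcripts encoded by mitochondrial DNA (mtDNA) took 30.2, 13.0, 12.7 and 10.3% of TPM, so the share in replicate 2 was more than that of any other library. Since TPM sums to a fixed total, this larger share lowered the nuclear values of replicate 2: the median log2 ratio of a coding gene in it to the mean of the other 3 libraries, with 0.1 TPM added to both, was -0.37 over 12313 genes, and -0.041 once mtDNA-encoded genes were taken out of the total. Correlations of log2 levels across 15043 genes were 0.961 to 0.966 between replicate 2 and the others, and 0.987 to 0.989 among replicates 3, 4 and 5. These are correlations across genes, which are not independent replicates. The labels name no cause for the difference, and its part in each result was not tested. Mean levels without replicate 2 are given for SLC6A3 and TH only. All other means of levels include it, and can lie between its value and those of the other libraries.

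A total of 14176 of 62826 listed genes reached 1 TPM in all 4 libraries. They included 11998 of 19872 protein-coding genes (60.4%) and 1184 of 14743 lncRNA genes (8.03%). The share of 60.4% is the one to set beside the counts of list members at 1 TPM below. Levels of at least 10 TPM on average were reached by 9057 coding genes and at least 100 TPM by 1589. The 20 highest genes held 13 of the mtDNA-encoded genes, headed by MT-ATP8 at 65007, 16561, 18181 and 13853 TPM, MT-CO2 at 30547, 14885, 15045 and 13064 TPM and MT-CO1 at 25777, 14866, 14342 and 11349.5 TPM. MT-ATP8 is a short gene that overlaps MT-ATP6, and its reads cannot be fully told apart from those of its neighbour. Replicate 2 was the highest of the 4 libraries for each of the 13. The 100 highest nuclear genes held 21.3 to 22.1% of nuclear TPM, and between 788 and 826 genes were needed to reach 50% of it.

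The nuclear genes at the top of the ranking served translation and the cytoskeleton. EEF1A1, which brings aminoacyl-tRNA to the ribosome, stood at 5249.8, 8163, 8259.6 and 8482 TPM, and the neuron-enriched alpha-tubulin TUBA1A at 5035, 6148, 6295 and 6529 TPM. ACTB and ACTG1, the cytoplasmic actins, averaged 4921 ± 394 and 4849 ± 927 TPM, and TMSB10, which binds actin monomers, 4066 ± 729.5 TPM. The ribosomal protein gene RPL41 reached 2979.8 ± 545 TPM. Several of these genes have near-identical copies elsewhere in the genome, and how the authors' counting divided such reads is not known. A gene without a symbol, from the submitters' own transcript assembly, ranked among the 20 highest as well, at 3016, 3404, 7217 and 7318 TPM, so its values formed a low pair (replicates 2 and 3) and a high pair.

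Among lncRNA genes the 10 highest were SNHG29 (693 ± 140.2 TPM), MALAT1 (687 ± 213 TPM), NORAD, GAS5, CHASERR, DANCR, MIAT, ZFAS1, TUG1 and SNHG6 (133 ± 14.5 TPM). MALAT1 is a nuclear RNA of speckles, and NORAD binds Pumilio proteins. TUG1 averaged 135 ± 7.43 TPM. MIAT, known from neural and retinal precursors, stood at 178 ± 26.4 TPM.

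All 6 neuronal markers were present in every library. TUBB3, the beta-tubulin of neurons, was at 1643, 2678, 2743 and 2860.3 TPM, where replicate 2 lay apart below the other 3. STMN2, a growth-cone protein that binds tubulin, was at 1551, 1515, 1477 and 1586 TPM. On TPM rescaled without mtDNA-encoded genes it averaged 1856 ± 246 TPM, with replicate 2 then the highest. SLC6A3 (chr5:1392790-1445430 on hg38, minus strand) was at 296, 359.8, 414 and 394 TPM and ranked 287 among coding genes. MAP2, a microtubule protein of dendrites, was at 242, 220.2, 226 and 242 TPM and RBFOX3, the splicing regulator known as NeuN, at 63.8, 71.5, 68.3 and 70.6 TPM. TH was the lowest of the 6 at 7.32, 13.0, 10.2 and 11.9 TPM and ranked 8933 among coding genes. The ranges of neighbouring genes in this order did not overlap, so the order TUBB3, STMN2, SLC6A3, MAP2, RBFOX3, TH held in each library. As these are whole cultures, fewer cells of a type and less RNA per cell cannot be told apart in any level given here.

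All 24 genes of the pan-neuronal cytoskeleton and growth cone list reached 10 TPM, and 20 of them 100 TPM. TUBA1A led it, followed by STMN1 at 2830.5 ± 295 TPM, whose range overlapped that of TUBB3. The neurofilament subunit NEFM averaged 803 ± 65.3 TPM and GAP43, a marker of axon growth, 510.1 ± 19.6 TPM. Of 18 neuronal RNA-binding and splicing factors, 17 reached 1 TPM in all libraries, led by the ELAV protein ELAVL3 at 513 ± 34.1 TPM, RBFOX2 at 322 ± 34.5 TPM and PTBP1 at 305 ± 37.5 TPM. The exception was RBFOX1, at 0.0220, 0.0400, 0.0520 and 0.0450 TPM.

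The dopamine list showed a wide step between uptake and synthesis. SLC6A3 held 65.4% of the summed level of its 14 genes, and its ratio to TH was 35.4 ± 6.27, with a range of 27.6 to 40.5 over the libraries. DDC stood at 0.426, 0.711, 0.454 and 0.479 TPM, below 1 TPM in every library. SLC18A2, the vesicular transporter, stood at 0.0840, 0.0940, 0.0170 and 0.0510 TPM, from 3 to 18 reads. Of the monoamine oxidases that break dopamine down, MAOA was at 0.181, 0.320, 0.210 and 0.228 TPM, while MAOB had at most 1 read in a library. The enzymes of the tetrahydrobiopterin cofactor that TH needs were all present: QDPR at 69.8 ± 15.7 TPM, PTS at 44.1 ± 11.7 TPM, GCH1 at 5.33 ± 1.17 TPM and SPR at 4.12 ± 0.653 TPM. ALDH1A1, an aldehyde dehydrogenase of ventral midbrain neurons, had at most 2 reads in a library. In all, 8 of the 14 genes reached 1 TPM in all libraries and 4 stayed under 0.1 TPM in each. On deposited TPM replicate 2 was the lowest library for SLC6A3, TH, QDPR, PTS, GCH1 and SPR. Without replicate 2, SLC6A3 averaged 389 ± 27.2 TPM and TH 11.7 ± 1.42 TPM. On TPM rescaled without mtDNA-encoded genes, SLC6A3 averaged 437.8 ± 26.3 TPM over the 4 libraries, against 366 ± 51.5 TPM as deposited. The order of libraries can differ on the rescaled values and is not given for these genes.

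Of 15 transcription factors listed for midbrain dopaminergic neurons, 8 reached 1 TPM in all libraries. The basic helix-loop-helix factor NEUROD1 was the highest at 439.7, 396, 389 and 372 TPM, ahead of the homeodomain cofactor PBX3 at 75.9 ± 5.77 TPM. NEUROD1 held 65.8% of the summed level of the list, and is not among the factors named above as setting midbrain identity. Both engrailed genes, which maintain midbrain neurons, were present. EN1 was at 39.3, 28.5, 25.8 and 25.0 TPM and EN2 at 8.46, 10.3, 10.0 and 9.89 TPM. OTX2, a fore- and midbrain factor, was at 23.0, 22.4, 25.0 and 22.4 TPM. NR4A2, the orphan nuclear receptor that activates TH and SLC6A3, was at 9.42, 7.40, 6.49 and 6.12 TPM. EN1 and NR4A2 were highest in replicate 2, against the downward shift of nuclear genes there. PITX3 stood at 0.157, 0.181, 0.266 and 0.159 TPM. LMX1A had no read in any library, which at 3 reads per library allows up to 0.0259 TPM, FOXA2 had at most 1 read, and LMX1B and FOXA1 stayed under 0.1 TPM. Such limits cover counting error only. The samples are labelled as dopaminergic neurons: of the genes that define this cell type, SLC6A3, TH, NR4A2, EN1 and OTX2 were thus present, while DDC, SLC18A2, PITX3, LMX1A and FOXA2 were under 1 TPM in every library.

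Other regional factors were also present. POU4F1, a POU factor known from sensory, habenular and tectal neurons, was at 300.1, 319, 301 and 309 TPM, which made it the leader of 26 regional and neural crest factors. GATA2 was at 48.3, 51.3, 67.7 and 49.4 TPM and TLX3 at 32.4, 61.0, 57.2 and 57.9 TPM. Of these 26 genes, 7 reached 1 TPM in all libraries. The 12 that stayed under 0.1 TPM in each included the hindbrain genes HOXA2, HOXB2 and HOXB4, as well as SOX10 and HAND2 of the neural crest lineage.

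**Figure D1:**
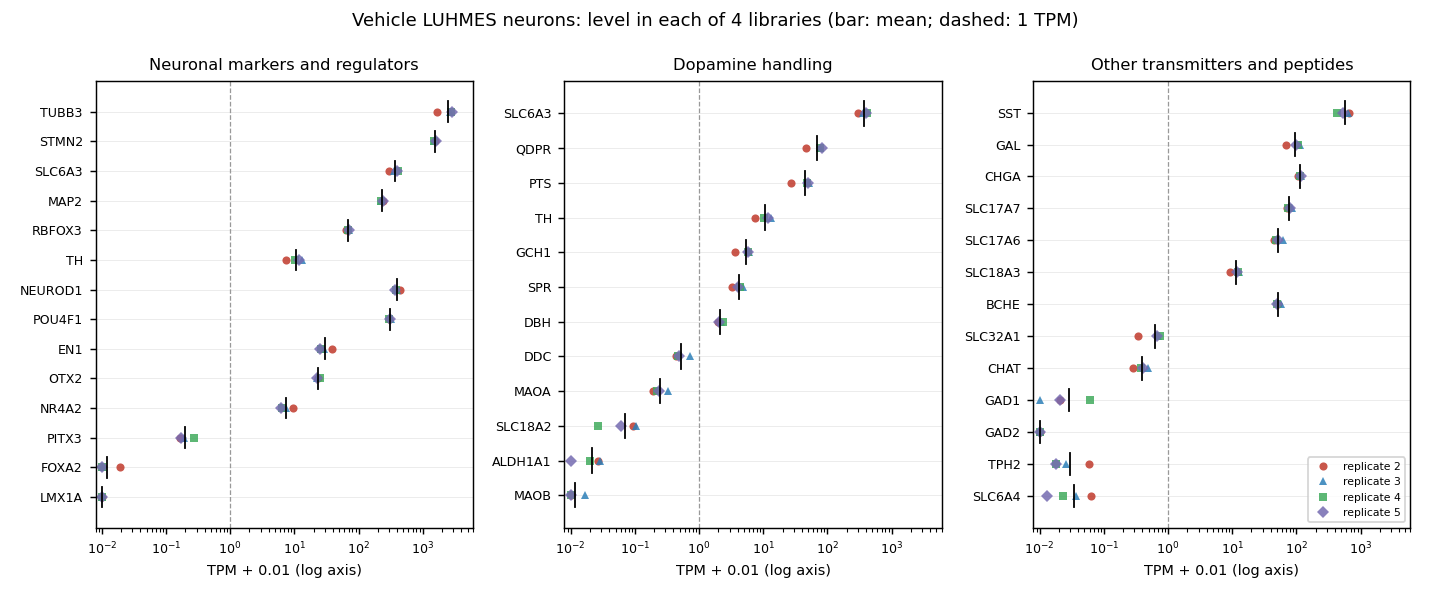
Level of selected genes in each of the 4 vehicle libraries, on a log axis of TPM with 0.01 added. Each symbol is a library and each bar the mean of 4. TH sits between 7.32 and 13.0 TPM in all libraries, well below SLC6A3 at 296 to 414 TPM, and DDC, MAOA and SLC18A2 lie left of the dashed line at 1 TPM.

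Genes of glutamatergic transmission were present beside those of dopamine. The vesicular glutamate transporter SLC17A7 was at 70.5, 86.8, 74.2 and 79.5 TPM and SLC17A6 at 45.1, 61.8, 47.7 and 51.3 TPM. SLC17A7 was higher in 4 of 4 libraries, with a ratio of SLC17A6 to it of 0.660 ± 0.0344. The third transporter of that family, SLC17A8, stayed under 0.1 TPM. On the inhibitory side GAD2 had no read in any library, GAD1 had at most 3, and the vesicular GABA transporter SLC32A1 was at 0.331, 0.678, 0.755 and 0.670 TPM. The glycine transporter SLC6A9 led the GABA and glycine list at 7.82 ± 1.31 TPM, and 2 of its 8 genes reached 1 TPM in all libraries.

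Cholinergic and other monoamine genes were partly present. The vesicular acetylcholine transporter SLC18A3 was at 9.37, 12.7, 12.3 and 11.8 TPM and butyrylcholinesterase BCHE at 52.2 ± 4.32 TPM, while choline acetyltransferase CHAT was at 0.273, 0.476, 0.370 and 0.399 TPM and the choline transporter SLC5A7 under 0.1 TPM. Of the 8 genes of serotonin, noradrenaline and histamine, 1 reached 1 TPM in all libraries, which was dopamine beta-hydroxylase DBH at 1.94, 2.20, 2.36 and 2.07 TPM. The serotonin genes TPH2, SLC6A4 and FEV stayed under 0.1 TPM in each library.

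Somatostatin was the leading peptide. SST (chr3:187668906-187670399, minus strand) was at 651, 646, 426 and 542 TPM and ranked 185 among coding genes, with the lowest level in replicate 4. Galanin (GAL) was at 68.5, 113, 105 and 99.9 TPM, so the 2 ranges did not overlap. The processing enzyme CPE, which trims peptides from their precursors, averaged 245 ± 23.5 TPM, and the granins SCG3 and CHGA of dense-core vesicles 162 ± 10.8 and 115.2 ± 6.80 TPM. Of 30 peptide and granin genes, 13 reached 1 TPM in all libraries. The 9 that stayed under 0.1 TPM in each included CCK, VIP, POMC, PDYN, CRH and GRP.

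Of 28 genes of the synaptic vesicle and its release, 25 reached 1 TPM in all libraries. The synuclein SNCG was at 515, 456, 495 and 496 TPM. SYT11 averaged 358 ± 52.5 TPM and synaptophysin SYP 174 ± 23.2 TPM. Synapsin SYN1 was at 97.2, 61.7, 59.1 and 59.4 TPM, highest in replicate 2, whereas its relative SYN2 averaged 1.25 ± 0.203 TPM. A short transcript of SYN1, SYN1-205 with 725 bases, held 64.2% of its level in replicate 2 and 30.2, 26.2 and 26.9% in the others. The higher level of SYN1 in replicate 2 thus lay in this transcript. SNAP25, a core part of the fusion machinery, was at 63.6, 72.6, 65.9 and 69.9 TPM. SV2C, the vesicle protein of basal ganglia neurons, stayed under 0.1 TPM.

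Voltage-gated channels were carried by a few members of each family. Among 15 sodium channel genes 6 reached 1 TPM in all libraries, led by SCN3A, the alpha subunit of immature neurons, at 33.7, 42.0, 39.4 and 42.1 TPM. The beta subunit SCN3B followed at 17.5 ± 1.11 TPM, and SCN8A, the axon initial segment channel of mature neurons, at 13.2, 15.5, 14.1 and 15.8 TPM. SCN2A was at 0.486, 0.539, 0.570 and 0.571 TPM, and SCN3A exceeded it by a factor of 72.6 ± 4.15. Calcium channels were led by the P/Q-type pore CACNA1A at 73.0, 85.8, 79.9 and 83.9 TPM, followed without overlap by the accessory subunit CACNB3 at 64.3 ± 10.7 TPM and then by the T-type pore CACNA1H at 49.5 ± 9.38 TPM, whose ranges overlapped. The L-type pore CACNA1C stood at 0.264, 0.562, 0.319 and 0.341 TPM. CACNA1D, the L-type pore linked to pacemaking in adult dopaminergic neurons, stood at 0.436, 0.483, 0.520 and 0.375 TPM, so both were under 1 TPM in every library. In all, 8 of 17 calcium channel genes reached 1 TPM in all libraries.

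Of 35 voltage-gated potassium channel genes 14 reached 1 TPM in all libraries and 10 stayed under 0.1 TPM in each. KCNH2, which encodes the hERG channel, was at 29.7, 44.2, 39.5 and 41.4 TPM and KCNB2 at 18.3 ± 1.01 TPM. Their ranges did not overlap. Of 30 other potassium channel genes 13 reached 1 TPM, led by the inward rectifiers KCNJ12 (13.8, 27.6, 30.4 and 32.8 TPM) and KCNJ3 (18.1, 22.9, 24.5 and 25.3 TPM) and the calcium-activated KCNN1 (16.3 ± 4.02 TPM), with overlapping ranges. KCNJ6, the GIRK2 channel by which dopaminergic neurons are often recognised, was at 0.772, 1.25, 0.996 and 1.01 TPM. The beta subunits of the sodium pump, ATP1B3 and ATP1B1, averaged 86.2 ± 19.3 and 79.0 ± 9.16 TPM. The pacemaker channel HCN2 was at 15.04 ± 3.16 TPM.

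Receptor lists differed in the share of members at 1 TPM in all libraries, which was 60.4% over all coding genes. Among AMPA, kainate and delta receptors 5 of 11 reached 1 TPM in all libraries. GRIA2, the AMPA subunit that keeps calcium out, was at 56.1, 53.4, 47.5 and 47.5 TPM and the kainate subunit GRIK5 at 20.01 ± 2.91 TPM. GRIA1 and GRIA4 stayed under 0.1 TPM. NMDA receptors need the GRIN1 subunit, which was at 0.632, 0.635, 0.697 and 0.671 TPM, and GRIN2D exceeded it by a factor of 14.1 ± 2.07 at 9.96, 10.2, 8.41 and 8.47 TPM. GRIN2A and GRIN2B had at most 1 and 3 reads in a library. The leading metabotropic receptors were GRM2 and GRM4, both coupled to inhibitory G proteins. GRM2 was at 59.9, 72.0, 69.5 and 71.8 TPM. GRM4 was at 54.2, 66.2, 60.4 and 62.6 TPM, with a range that overlapped that of GRM2, although GRM2 was the higher one in each library. GRM8 followed at 1.06 ± 0.0583 TPM. GRM5 stayed under 0.1 TPM.

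GABA-A receptors are pentamers of alpha, beta and usually gamma subunits. The highest alpha subunit was GABRA5 at 1.29, 1.37, 1.12 and 1.22 TPM and the highest gamma subunit GABRG3 at 0.464 ± 0.0690 TPM. Both subunits of the metabotropic GABA-B receptor were present, with GABBR2 at 39.3, 35.1, 34.0 and 33.5 TPM and GABBR1 at 17.1, 15.7, 13.6 and 14.5 TPM. Of the 21 GABA and glycine receptor genes, 5 reached 1 TPM in all libraries and 13 stayed under 0.1 TPM.

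The D2 dopamine receptor dominated the monoamine receptors. DRD2 (chr11:113409615-113475691, minus strand) was at 187, 153, 134 and 144 TPM, highest in replicate 2, and held 93.2% of the summed level of 29 genes. The histamine H3 receptor HRH3 was the other member at 1 TPM or more, at 7.07, 9.06, 7.56 and 8.53 TPM. DRD1, DRD3 and DRD5 stayed under 0.1 TPM. Of nicotinic and muscarinic genes, 10 of 18 (55.6%) reached 1 TPM in all libraries, near the 60.4% of all coding genes. CHRNA4 was at 29.2, 31.5, 27.2 and 28.8 TPM and CHRNB2, its partner in the common brain receptor, at 17.0, 24.03, 24.7 and 26.9 TPM. CHRNA3 was at 25.4, 17.3, 13.0 and 13.7 TPM and its range overlapped that of CHRNB2. CHRNA6, typical of adult dopaminergic terminals, had at most 4 reads.

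Growth factor receptors differed widely in level. NTRK3, the receptor of a neurotrophin, was at 0.631, 0.599, 0.580 and 0.634 TPM, and NTRK2, the BDNF receptor, at 0.0470, 0.0390, 0.0320 and 0.0390 TPM. GFRA1, which binds the GDNF added to the medium, was at 87.8, 122, 114 and 128 TPM and its signalling partner RET at 12.3, 13.2, 17.2 and 18.5 TPM, a ratio of 7.47 ± 1.16. The sorting receptor SORT1 averaged 49.1 ± 9.05 TPM. Of 25 genes of this list 15 (60%) reached 1 TPM in all libraries, about the share of all coding genes (60.4%). Axon guidance receptors were more complete, with 19 of 24 at that level and none under 0.1 TPM in all libraries. PLXNA3 (151 ± 16.6 TPM), ROBO2 (127 ± 9.37 TPM) and ROBO1 (123 ± 14.7 TPM) led them, with overlapping ranges. Part of the ROBO1 level, 27.3 ± 9.39%, lay in ROBO1-203, a transcript of 550 bases that is not annotated as protein-coding.

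**Figure D2:**
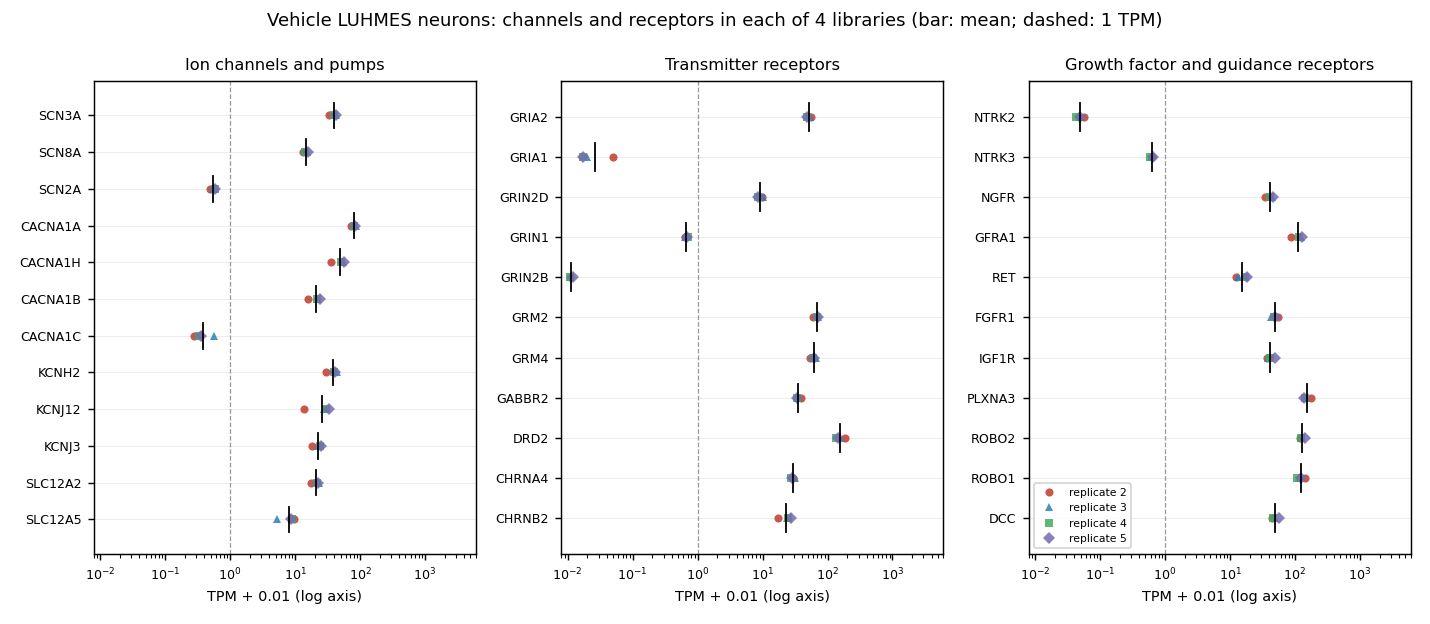
Level of selected channels and receptors in each of the 4 vehicle libraries, on a log axis of TPM with 0.01 added. Each symbol is a library and each bar the mean of 4. DRD2 lies above 100 TPM in all libraries, while GRIN1 and NTRK2 lie below 1 TPM, left of the dashed line.

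Adhesion molecules of growing axons were high. CNTN2, a contactin of early axons, was at 359, 513, 442 and 508 TPM, NCAM1 at 329, 349.6, 337 and 380.2 TPM and CADM1 at 199 ± 10.1 TPM, and the ranges of CNTN2 and NCAM1 overlapped. Of 27 immunoglobulin-type molecules 17 reached 1 TPM in all libraries. THY1, a surface protein of mature projection neurons, had no read in any library, which allows up to 0.0490 TPM. N-cadherin (CDH2) was at 234, 278, 275 and 292 TPM and held 78.8% of the summed level of 25 cadherins and protocadherins, of which 8 reached 1 TPM in all libraries. PCDH20 and CDH10 followed at 15.9 ± 2.56 and 14.3 ± 1.02 TPM. E-cadherin (CDH1) stayed under 0.1 TPM.

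Of 33 synaptic organisers, 21 reached 1 TPM in all libraries. The receptor phosphatase PTPRS was at 239.6, 325, 317 and 345 TPM, cerebellin CBLN1, which bridges neurexins to delta receptors, at 107, 124, 112 and 124 TPM, and the latrophilin ADGRL2 at 73.5 ± 2.94 TPM. Neurexin NRXN3 and the cerebellin CBLN4 stayed under 0.1 TPM. Of 33 integrin and matrix genes 16 reached 1 TPM, led by 3 secreted proteins with overlapping ranges. The proteoglycan NCAN averaged 185 ± 14.0 TPM, the glycoprotein tenascin TNC 179.5 ± 24.3 TPM and the collagen-binding SPARC 145 ± 24.5 TPM. Of the SPARC level, 48.1 ± 1.41% lay in SPARC-202, which is annotated as a retained intron. The perineuronal net core protein ACAN stayed under 0.1 TPM.

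Glycolysis genes reached 1 TPM in all libraries for 23 of 28 members. GAPDH was at 1801, 2725, 2766 and 2767 TPM, lactate dehydrogenase LDHB at 672, 966, 1044 and 1028 TPM and TPI1 at 802, 869, 873 and 866 TPM. LDHB, the subunit typical of tissues that burn lactate, exceeded LDHA in 4 of 4 libraries, with a ratio of 2.89 ± 0.441. HK1 was at 99.1, 99.8, 98.1 and 105 TPM and HK2 at 4.37, 6.54, 6.93 and 7.14 TPM. The muscle-type phosphofructokinase PFKM exceeded the platelet type PFKP by a factor of 101.8 ± 18.8. The ubiquitous glucose transporter SLC2A1 was at 22.8, 34.1, 38.3 and 40.7 TPM and the neuronal SLC2A3 at 14.6, 23.4, 19.6 and 21.3 TPM, lower in 4 of 4 libraries. The adult neuronal enolase ENO2 was also below its ubiquitous relative, and ENO1 exceeded it by a factor of 4.79 ± 0.381.

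All 33 genes of the TCA cycle and pyruvate entry reached 1 TPM in all libraries, led by CS at 239.7 ± 27.1 TPM, IDH1 at 239 ± 46.2 TPM and MDH2 at 206 ± 22.4 TPM, with overlapping ranges. Of 23 oxidative phosphorylation genes chosen as isoforms, 19 did so. The catalytic ATP synthase subunits led. ATP5F1B was at 477, 965, 981 and 1029.8 TPM and ATP5F1A at 333, 670.3, 705 and 733 TPM, in both cases with replicate 2 at about 50% of the others. The cytochrome oxidase subunit COX4I1 was at 453, 632, 636 and 654 TPM. COX4I2, its lung isoform, had no read in any library. Creatine kinase CKB, which buffers ATP in brain, was at 1795, 1789, 1789.8 and 1859.5 TPM and had a CV of 1.89%, which was 11.7% on TPM rescaled without mtDNA-encoded genes. ACADVL and HMGCS1, of fatty acid oxidation and sterol synthesis, averaged 388 ± 30.2 and 292 ± 44.1 TPM. The ACADVL level was divided over 39 annotated transcripts. Its leader ACADVL-216, a retained-intron transcript of 720 bases, held 14.6 ± 0.917% and did not lead in all libraries.

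Replicate 2 stood apart in the metabolic lists. For the 15 mtDNA-encoded genes the median log2 ratio of replicate 2 to the mean of the others was 1.20. It was -0.66 for the nuclear oxidative phosphorylation isoforms, -0.63 for glycolysis and -0.50 for the TCA cycle. With mtDNA-encoded genes taken out of the total these became -0.33, -0.30 and -0.17. The dopamine list lay on the same side, at -0.69 and then -0.36. The midbrain transcription factors lay at 0.09 and on the rescaled values at 0.42, and the release machinery went from -0.10 to 0.23, a change of sign that came with the rescaling. Among markers of other cell types the rescaled median was -0.21 for the endothelial, pericyte and fibroblast list. It was -0.18 for the oligodendrocyte lineage list, and each of these medians rests on 5 genes. The astrocyte list lay on the other side, at 0.06 over 4 genes. Low values were not particular to such markers, as the list of other potassium channels lay at -0.20. The part of other cell types in these values was not tested. Replicate 2 also tracked base composition: on the rescaled values its median was 0.04 in the fifth of 8461 coding genes with the lowest GC content of the leading transcript (median GC 38.7%) and -0.21 in the fifth with the highest (62.4%). By length it was -0.14 in the fifth with the shortest leading transcripts (median 976 bases) and 0.02 in the fifth with the longest (median 6327.5 bases). The parts of GC content and length in the list values were not tested.

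**Figure D3:**
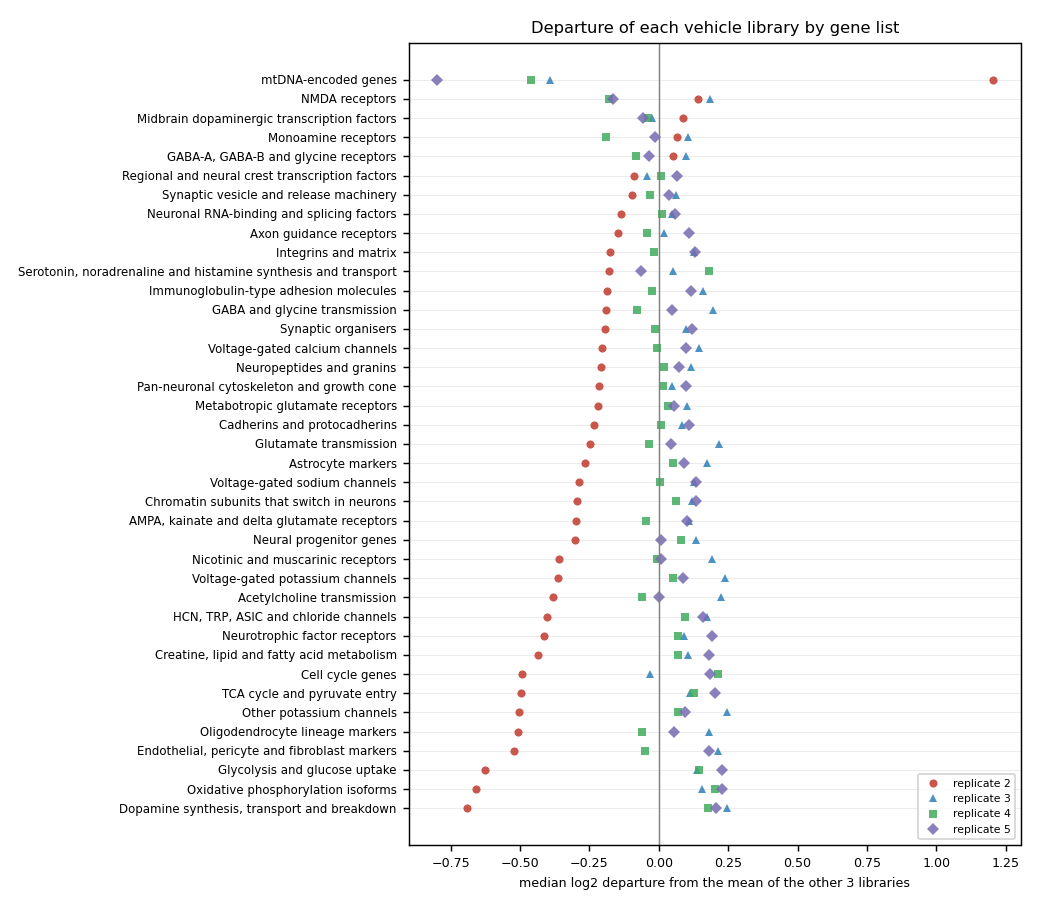
Median over the members of each gene list of the log2 ratio of a library to the mean of the other 3, with 0.1 TPM added to both, for members with a mean of at least 1 TPM. Each symbol is a library. Replicate 2 lies at 1.20 for mtDNA-encoded genes, and at -0.69 and -0.66 for the dopamine and oxidative phosphorylation lists.

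Several genes of newborn neurons and precursors were at high levels. Of 35 listed genes 27 reached 1 TPM in all libraries. HMGA1, a chromatin protein of dividing cells, was at 619, 464, 529 and 499.6 TPM, the helix-loop-helix factor NHLH1 of neurons that have just left the cycle at 307, 329, 299 and 307 TPM, and SOX4 at 239, 336, 326 and 336 TPM. INSM1, which drives the exit from the cycle, averaged 292 ± 52.2 TPM and SOX11, a relative of SOX4, 256 ± 14.5 TPM. The stem cell factor SOX2 was at 0.208, 0.241, 0.418 and 0.275 TPM, and NES and VIM, intermediate filaments of progenitors, averaged 39.7 ± 4.87 and 185 ± 7.52 TPM. PAX7 and NKX2-2 stayed under 0.1 TPM.

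Cell cycle genes were broadly present, with 34 of 35 at 1 TPM or more in all libraries. The cyclin-dependent kinase inhibitor CDKN1C led at 90.7, 180.3, 136 and 154 TPM, with overlapping ranges for MYC at 92.5, 130.4, 167.97 and 155 TPM and CDK4 at 71.3, 142, 142 and 144 TPM. The line carries a v-myc transgene, and whether reads from it were counted under MYC is not known. Proliferation genes were lower: TOP2A, which untangles DNA at mitosis, was at 39.0, 42.4, 56.7 and 56.1 TPM and MKI67, the Ki-67 antigen, at 14.4, 10.1, 14.8 and 15.2 TPM. How many cells were dividing cannot be read from these levels. CDKN2A was the exception of the list, at 0.750, 0.195, 0.118 and 0.254 TPM.

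Chromatin and splicing factors that switch at neuronal birth were present in both forms. The progenitor subunit of the BAF remodelling complex ACTL6A was at 89.1, 136, 137 and 143 TPM and its neuronal counterpart ACTL6B at 27.2, 35.1, 33.6 and 35.8 TPM, so ACTL6A exceeded it by a factor of 3.81 ± 0.366. SS18 exceeded SS18L1 by a factor of 2.66 ± 0.557. PTBP1, which represses neuronal exons in progenitors, exceeded PTBP2 by a factor of 5.66 ± 0.453. In each case the progenitor form was higher in 4 of 4 libraries. All 12 chromatin genes listed reached 1 TPM, led by the BAF subunit SMARCD1 at 155 ± 10.8 TPM.

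Over 31 pairs of related genes, 26 had at least 10 reads for both members in every library, and each of these 26 kept its order in all 4. The first named gene was higher in 6 pairs, among them HK1 over HK2, CPT1C over CPT1A (13.1 ± 1.74), LDHB over LDHA, and the kinesin KIF5C over KIF5B (2.16 ± 0.162). In some pairs, such as the kinesins, the first gene was chosen as the neuronal or mature form. HK1, CPT1C, LDHB and VAMP1 were not, so the order of their pairs does not bear on such a switch. The second was higher in the other 20. They included EEF1A1 over the adult elongation factor EEF1A2, VAMP2 over VAMP1 (13.2 ± 0.460) and ALDOA over the brain aldolase ALDOC (14.98 ± 0.394). The closest pair was the dynamins, with a ratio of DNM1 to DNM2 of 0.922 ± 0.0364. The chloride importer SLC12A2 averaged 21.3 ± 2.76 TPM and the chloride extruder SLC12A5 8.10 ± 1.88 TPM, the latter from at most 202 reads in a library, with SLC12A5-219, a transcript of 401 bases, holding 86.6 ± 3.34% of its level.

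**Figure D4:**
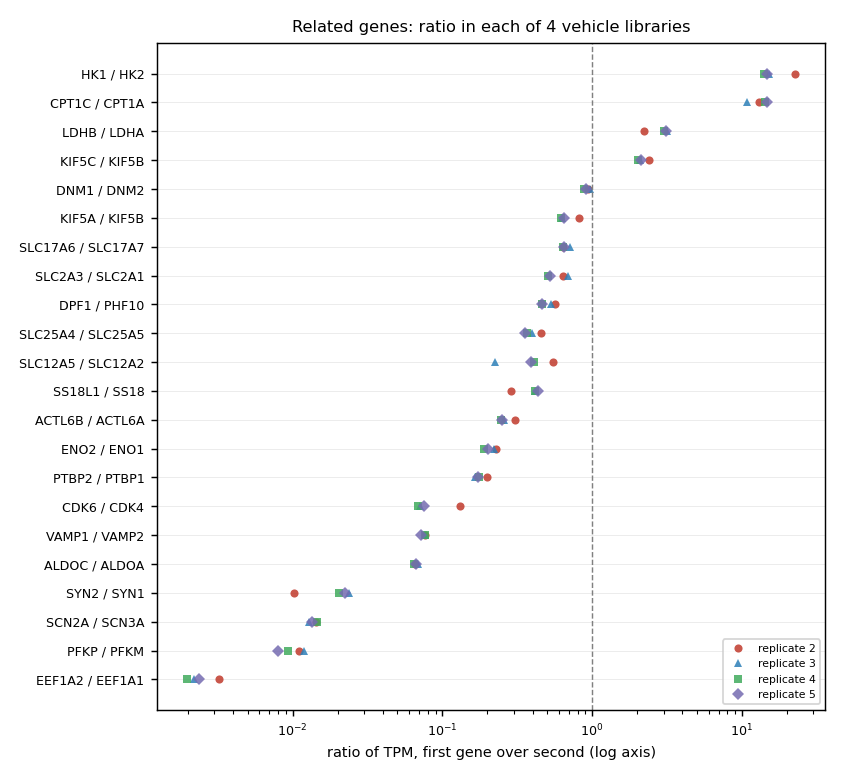
Ratio of TPM between related genes in each of the 4 vehicle libraries, on a log axis, for 22 of the 26 pairs with at least 10 reads for both genes in every library. Each symbol is a library and the dashed line marks equal levels. The first named gene is the higher one in 4 of the pairs shown and the second in 18, with all 4 libraries on the same side in each pair.

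Markers of other cell types were read from 5 lists. Microglia and blood markers had 0 of 10 genes at 1 TPM in all libraries, with a summed level of 0.181 to 0.471 TPM, and AIF1, C1QA, C1QB and HBB had no read. Pluripotency and other germ layer markers had 0 of 12, with a summed level of 1.31 to 1.88 TPM. Astrocyte markers had 4 of 9, with a summed level of 29.01 to 39.1 TPM, of which the gap junction gene GJA1 supplied most at 19.1, 22.5, 23.6 and 23.3 TPM, and GFAP had no read while AQP4 was under 0.1 TPM. Endothelial, pericyte and fibroblast markers had 5 of 13, at 14.6 to 28.3 TPM in sum, headed by CLDN5 at 3.41, 11.5, 7.69 and 8.94 TPM and PDGFRB at 4.55, 8.35, 8.81 and 8.21 TPM, while PECAM1, KDR, DCN and COL3A1 were under 0.1 TPM. Of the oligodendrocyte lineage list 5 of 10 reached 1 TPM, at 71.3 to 109.9 TPM in sum: CNP was at 30.4, 44.2, 46.9 and 45.7 TPM, OLIG2 at 22.2, 36.8, 27.3 and 30.8 TPM and OLIG1 averaged 18.4 ± 3.91 TPM, while SOX10, MOG and MAG were under 0.1 TPM. OLIG1 and OLIG2 are also made by neural progenitors, and CNP is not confined to oligodendrocytes.

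The spread between differentiations was small apart from replicate 2. The common biological CV, the spread beyond counting error that edgeR estimates over all genes, was 14.8% over the 4 libraries and 5.84% without replicate 2, against 16.7 to 17.0% without any other library. For coding nuclear genes at 10 to 100 TPM the median CV was 14.1% and the median CV from counting alone 1.53%. Over replicates 3, 4 and 5 it was 4.02%. On deposited TPM replicate 2 was the lowest or highest library for 6898 of the 7463 genes in that range. Were the 4 libraries interchangeable, each would be so for about 50% of genes. The larger mtDNA share of replicate 2 shifts its nuclear genes together, and the count was not repeated on rescaled values. On TPM rescaled without mtDNA-encoded genes the median CV of the genes in that range was 9.32%. Coding nuclear genes above 100 TPM had a median CV of 13.5% and none exceeded 50%. On the deposited TPM the most even genes above 10 TPM were TARS1 at 126 ± 0.387 TPM, a tRNA synthetase, followed by C18orf21 and MRPS9, but on TPM rescaled without mtDNA-encoded genes their CVs were 12.4, 12.1 and 12.3%.

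The 10 most variable named genes above 10 TPM were mostly small structured RNAs and copies of other genes. RN7SL1, a copy of the signal recognition particle RNA, was at 21.0, 557, 87.5 and 74.0 TPM, and the near-identical RN7SL2 was likewise highest in replicate 3, at 21.1, 592, 111 and 80.1 TPM. The 5.8S ribosomal RNA copies RNA5-8SN1, RNA5-8SN2 and RNA5-8SN3, the RNA 7SK and the spliceosomal RNU1-3 were each at 0 in 1 library or more. Small RNAs of this kind mostly lack a poly(A) tail, and the libraries were made with an mRNA kit, so their levels here are not their levels in the cell. The other 3 were the pseudogene RPS26P19, the short open reading frame gene ASDURF, and INS, the neighbour of TH on chromosome 11, which was at 60.6, 0, 0 and 0 TPM. Reads for INS were thus found in replicate 2 and in no other library.

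The leading transcript was determined for 8461 coding genes with a mean of at least 5 TPM, at least 2 annotated transcripts and at least 95% of their level in transcripts that could be matched to the annotation. It held a median of 64.9% of the gene's level. In 5927 genes (70.1%) it held at least 50% and in 1392 (16.5%) at least 90%. The same transcript led in all 4 libraries in 6820 genes (80.6%). Of the 1641 genes where it did not, replicate 2 alone departed from a leader shared by the other 3 in 1119, against 82, 66 and 82 for replicates 3, 4 and 5. RPL10 is an example, in which RPL10-207 held 0.416% of the level in replicate 2 and 52.6, 54.7 and 55.1% in the others. Neuronal genes were among them. DBN1, which encodes the actin-binding protein drebrin, had DBN1-202 at 16.7% of its level in replicate 2 and at 74.3, 75.4 and 74.8% in the others, and UCHL1, a ubiquitin hydrolase of neurons, had UCHL1-201 at 19.2% and then 55.01, 61.5 and 62.03%. Replicate 2 was thus apart in transcript shares as well as in levels. The leader was annotated as protein-coding in 7932 genes and as a retained intron in 179.

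In 37 of 43 transmitter genes the leader held at least 50%, with a median of 87.01%, and in 38 of 41 progenitor genes, with a median of 82.0%. The median was 61.9% over 29 receptor genes and 66.0% over 33 channel genes. STMN2 was almost wholly STMN2-201 (99.6 ± 0.0750%), NEUROD1 NEUROD1-201 (99.7 ± 0.0621%) and GAL GAL-201 (99.8 ± 0.213%). The single-transcript pattern also held for TUBB3 (TUBB3-201, 97.8 ± 0.193%) and SLC17A7 (SLC17A7-201, 92.6 ± 0.704%). SLC6A3 was led by SLC6A3-201 with 75.7 ± 7.94% and TH by TH-203 with 74.5 ± 2.77%, the same transcript in all 4 libraries for both genes. The leader of DRD2 was DRD2-202 with 66.0 ± 11.9%. At the other end, CACNA1A was divided over 58 annotated transcripts, and its leader CACNA1A-209 held 17.4 ± 3.32%. GRM2 was led by the retained-intron transcript GRM2-205 with 35.8 ± 5.63%, not in all libraries. Transcript shares of long genes with many similar transcripts rest on the quantifier's division of shared reads, whose error is not in the tables.

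Alternative exons were measured as the share of the TPM of spanning transcripts that held the exon. The exons shown are cassette or paired exons known to differ between immature and mature neurons or other cells. In the printed cassette exons the exon is in capitals between 20 bases of the neighbouring exons in lower case, taken from the leading transcript that holds it in GENCODE 29 on hg38.

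Tau (MAPT) exon 10 encodes the extra microtubule-binding repeat that separates the 4-repeat from the 3-repeat forms of the protein, and fetal neurons make mostly the latter. Its inclusion was 33.7%, 53.0%, 54.02% and 51.1%, with replicate 2 below the others. The mean was 48.0 ± 9.58%, at a gene level of 28.7 ± 1.05 TPM. The N-terminal exons 2 and 3, which are added in adult neurons, were included at 9.63 ± 4.33% and 9.36 ± 4.37%, again lowest in replicate 2 at 3.24% and 2.88%.

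The dopamine receptor DRD2 has a cassette exon that makes the long, mainly postsynaptic form when it is included, and the short autoreceptor form when skipped. It lies at chr11:113414375-113414461 on the minus strand, spans 87 bases and was included at 84.3%, 82.4%, 84.95% and 83.2%, so the long form was the main one in every library. This exon was chosen after the level of the gene had been seen.
DRD2 exon 6: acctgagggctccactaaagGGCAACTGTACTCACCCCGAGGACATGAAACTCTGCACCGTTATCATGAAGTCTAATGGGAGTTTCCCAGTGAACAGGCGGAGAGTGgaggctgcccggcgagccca

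Microexons of neurons were included to different degrees. The N1 exon of the kinase SRC (chr20:37386460-37386477, plus strand, 18 bases), spliced in by neuronal factors such as SRRM4, was included at 53.3%, 50.2%, 52.7% and 53.7%, an even mean of 52.5 ± 1.57%. In the adhesion molecule L1CAM the neuronal exons 2 (chrX:153873228-153873242, minus strand, 15 bases) and 27 (chrX:153863368-153863379, minus strand, 12 bases) were near full inclusion, at 91.8 ± 0.473% and 94.3 ± 0.8286%. The VASE exon of NCAM1 (chr11:113221296-113221325, plus strand, 30 bases), which rises as the brain matures and dampens neurite growth, was included at 51.2%, 43.1%, 41.8% and 41.6%. The neuronal insert of clathrin light chain CLTB was included at 47.6 ± 2.74%.
SRC N1: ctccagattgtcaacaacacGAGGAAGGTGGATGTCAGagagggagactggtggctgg
L1CAM exon 2: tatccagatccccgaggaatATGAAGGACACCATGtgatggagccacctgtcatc
L1CAM exon 27: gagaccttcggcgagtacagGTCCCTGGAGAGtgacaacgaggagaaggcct
NCAM1 VASE: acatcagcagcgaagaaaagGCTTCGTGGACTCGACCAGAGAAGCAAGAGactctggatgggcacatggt

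SNAP25 has a pair of exons of equal length, 5a and 5b, of which 5a prevails early and 5b in the adult brain. They differ at 31 bases, shown in capitals. Exon 5a (chr20:10292882-10292999, plus strand) was included at 66.7%, 72.3%, 78.2% and 70.0% and exon 5b (chr20:10293161-10293278, plus strand) at 32.99%, 27.002%, 21.8% and 30.03%, so 5a prevailed in each library.
SNAP25 exon 5a: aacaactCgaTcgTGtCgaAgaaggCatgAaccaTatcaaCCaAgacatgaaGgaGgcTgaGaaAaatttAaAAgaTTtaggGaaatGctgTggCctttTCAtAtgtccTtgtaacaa
SNAP25 exon 5b: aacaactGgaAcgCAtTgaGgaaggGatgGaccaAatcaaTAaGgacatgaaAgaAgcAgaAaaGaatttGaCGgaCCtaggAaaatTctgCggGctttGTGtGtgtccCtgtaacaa

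Pyruvate kinase PKM uses exon 9 in the adult M1 form and exon 10 in the M2 form of proliferating cells. The pair differs at 62 bases, again in capitals. Exon 10 (chr15:72202454-72202620, minus strand) was included at 85.9%, 82.7%, 82.8% and 82.4% and exon 9 (chr15:72203022-72203188, minus strand) at 11.1%, 13.1%, 13.0% and 13.3%, at a gene level of 689 ± 41.3 TPM, so the M2 form was the main one in every library.
PKM exon 9: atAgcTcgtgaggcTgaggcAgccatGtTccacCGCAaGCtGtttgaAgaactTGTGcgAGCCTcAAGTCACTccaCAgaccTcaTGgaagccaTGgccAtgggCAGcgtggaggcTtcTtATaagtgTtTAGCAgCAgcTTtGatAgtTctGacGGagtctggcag
PKM exon 10: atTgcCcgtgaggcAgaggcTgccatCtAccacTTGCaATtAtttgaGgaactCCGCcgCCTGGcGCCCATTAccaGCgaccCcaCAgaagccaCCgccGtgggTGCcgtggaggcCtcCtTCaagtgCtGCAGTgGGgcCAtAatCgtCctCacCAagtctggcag

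The amyloid precursor gene APP was at 358 ± 13.4 TPM. Exon 15 was included at nearly full level, while exon 7, which encodes a protease inhibitor domain and is skipped in most neuronal transcripts, was included at 41.5%, 36.9%, 36.3% and 35.5% and exon 8 at 20.2%, 11.8%, 11.7% and 10.2%. Both were highest in replicate 2. The flip and flop exons of GRIA2 are not given, since 26.1% of the gene's level lay in transcripts that could be matched.

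**Figure D5:**
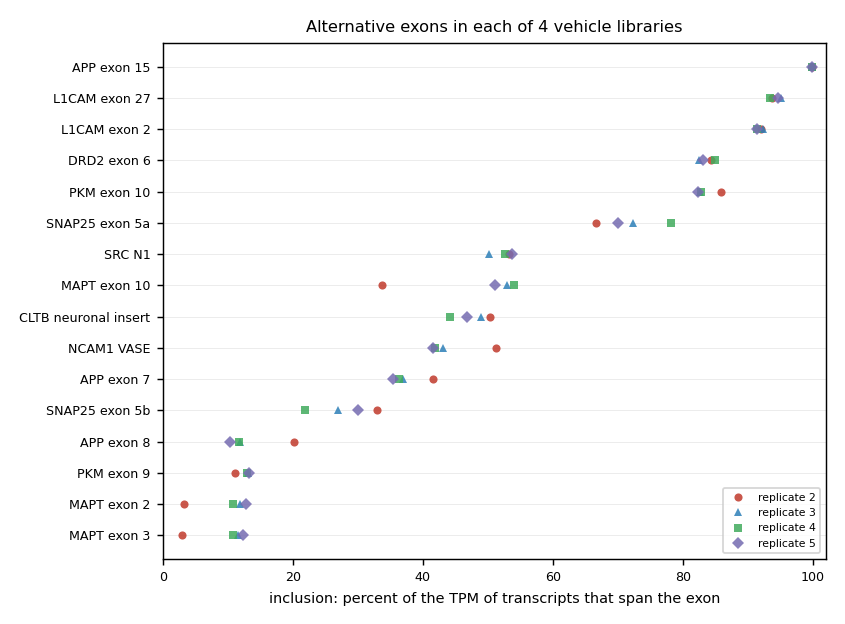
Inclusion of alternative exons in each of the 4 vehicle libraries, as a percent of the TPM of transcripts that span the exon, for genes with at least 90% of their level in matched transcripts. Each symbol is a library. MAPT exon 10 lies at 33.7% in replicate 2 and at 51.1 to 54.02% in the others, and the exons of L1CAM lie above 91%.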

How the data were processed

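RNA of 4 vehicle-treated differentiations of LUHMES cells was sequenced as mRNA libraries, 1 table of genes and 1 of transcripts per library. The deposited estimated counts (expected counts, not whole) and the deposited TPM values were used as the authors gave them; the column names are those of salmon, and the sources used here do not give the quantifier, its settings or the strand. Per the submitters' processing notes the tools were HISAT2, SAMtools and StringTie and the build hg38. Gene types, transcript names, coordinates and exon sequences were taken from GENCODE 29 on hg38, which matched 202700 of 253512 transcripts; types may differ in the authors' release. How the counting divided reads between near-identical copies (EEF1A1, TUBA1A, ribosomal proteins, nuclear copies of mtDNA) or overlapping genes is not known, and such levels are uncertain.

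There is 1 group and so no test: levels are means with SD over 4 libraries, and replicates were compared first (no pair of libraries agreed within sampling noise). Whether the numbers mark separate cultures beyond the differentiation is not stated, so the spread may be partly technical. The spread was estimated with edgeR 4.0.16 (limma 3.58.1, R 4.3.3) from estimated counts rounded to whole numbers, after filterByExpr and TMM, with DESeq2 1.42.0 size factors as an alternative. Other values were computed in Python 3.11.15 with pandas 2.3.3 and numpy 2.4.6, and the scripts were tested on simulated data. Depth was 93717712 to 110020746 estimated reads, and limits from 3 reads cover counting error only.

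The members and the 42 gene lists (825 genes), 31 pairs and 23 exons were chosen with earlier results of these data known. Named genes were the 20 highest, the 10 most variable above 10 TPM, the 3 highest of each list with any member given as low, the members of pairs and exon genes, the 6 markers and the 10 highest lncRNA genes. Others (NR4A2, EN1, EN2, OTX2, RET, NTRK3, GABRA5, SOX11, MKI67, TOP2A, DBN1 and UCHL1 among them) were chosen after their values were seen. A check of GC content and length, and the exon of DRD2, were added after seeing the data. Alternatives covered the scaling of TPM, the length used, the limits on low values and leaving out each library. Genes of the Y chromosome and the treated libraries were not used. Some items are not reported here.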

Additional observations from a re-analysis of the deposited data

Results flagged for a closer look

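Each of 201 reported values was looked at for a library whose gap to the nearest of the other 3 took more of the whole range than Dixon's 95% critical value allows; chance flags about 1 in 20 groups of 4. This singled out 46 of them, 39 for replicate 2. The share of mtDNA-encoded transcripts was among them, at 30.2% in replicate 2. Gene levels were taken as deposited TPM, in which this share lowers the nuclear genes of replicate 2. The flags were not repeated on TPM rescaled without mtDNA-encoded genes, where the order of libraries can differ, as it did for STMN2.

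Replicate 2 was singled out as the lowest library for the following gene levels in deposited TPM. Among genes outside the lists these were ACTG1 (3461 TPM), EEF1A1 (5249.8 TPM), RPL41 (2163 TPM), SNHG29 (484 TPM) and TMSB10 (2981 TPM). Among other neuronal and regional genes these were ACTL6A (89.1 TPM), TLX3 (32.4 TPM) and TUBB3 (1643 TPM). Among channels and pumps these were ATP1B3 (57.6 TPM) and KCNN1 (10.3 TPM). Among metabolic genes these were ATP5F1A (333 TPM), ATP5F1B (477 TPM), COX4I1 (453 TPM), FASN (168.4 TPM), GAPDH (1801 TPM) and TPI1 (802 TPM). Among progenitor and cell cycle genes these were CDK4 (71.3 TPM), HES6 (20.2 TPM) and SOX4 (239 TPM). Among markers of other cell types these were CNP (30.4 TPM) and PDGFRB (4.55 TPM). Among genes of transmission and midbrain identity these were GCH1 (3.58 TPM), PTS (26.6 TPM), QDPR (46.5 TPM) and SYP (139 TPM). As the highest library it was singled out for EMX2 (37.4 TPM), INS (60.6 TPM), MALAT1 (1004 TPM), MT-ATP8 (65007 TPM), MT-CO2 (30547 TPM) and SYN1 (97.2 TPM). For SYN1, a transcript of 725 bases held 64.2% of that level.

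Replicate 5 was the highest library for CKB at 1859.5 TPM, with the other 3 at 1789 to 1795 TPM. Replicate 4 was the highest library for GATA2 at 67.7 TPM, with the other 3 at 48.3 to 51.3 TPM. Replicate 3 was the lowest library for MKI67 at 10.1 TPM, with the other 3 at 14.4 to 15.2 TPM. Replicate 3 was the highest library for RN7SL1 at 557 TPM, with the other 3 at 21.0 to 87.5 TPM. Replicate 3 was the highest library for RN7SL2 at 592 TPM, with the other 3 at 21.1 to 111 TPM.

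The ratio of LDHB to LDHA was lowest in replicate 2 at 2.23, against 3.04 to 3.15 in the other 3. The ratio of SLC17A6 to SLC17A7 was highest in replicate 3 at 0.712, against 0.640 to 0.646 in the other 3. The ratio of SS18L1 to SS18 was lowest in replicate 2 at 0.287, against 0.413 to 0.433 in the other 3. The ratio of VAMP1 to VAMP2 was lowest in replicate 5 at 0.0719, against 0.0770 to 0.0771 in the other 3. The inclusion of APP exon 8 was highest in replicate 2 at 20.2%, against 10.2 to 11.8% in the other 3. The inclusion of MAPT exon 10 was lowest in replicate 2 at 33.7%, against 51.1 to 54.02% in the other 3. The inclusion of NCAM1 VASE was highest in replicate 2 at 51.2%, against 41.6 to 43.1% in the other 3. The inclusion of PKM exon 10 was highest in replicate 2 at 85.9%, against 82.4 to 82.8% in the other 3. The inclusion of PKM exon 9 was lowest in replicate 2 at 11.1%, against 13.0 to 13.3% in the other 3.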

How the results depend on the processing

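No paired analysis was possible because there is 1 group and no test. The median log2 ratio of replicate 2 changed from below to above 0 in 21 of 39 lists under rescaling without mtDNA-encoded genes, among them the release machinery, from -0.10 to 0.23. For the midbrain transcription factors it went from 0.09 to -0.024 with no limit on the mean TPM. TPM rescaled without mtDNA-encoded genes raised the mean of SLC6A3 from 366 to 437.8 TPM, of STMN2 from 1532 to 1856 TPM, of RBFOX3 from 68.6 to 82.7 TPM and of MAP2 from 233 to 282 TPM, each by more than 1 SD, and brought the median log2 ratio of replicate 2 over coding genes from -0.37 to -0.041. Reads over the annotated length gave 1654 TPM for STMN2 and 263 TPM for MAP2. TH and TUBB3 moved by less than 1 SD under both, although rescaling raised them too, from 10.6 to 12.6 TPM and from 2481 to 2942 TPM. Relative to the mean, their SDs (2.49 and 564 TPM) were wider than those of SLC6A3, STMN2, RBFOX3 and MAP2. Whether a level moved by over 1 SD therefore depends on its spread as well as on the scaling. The common biological CV ran from 5.84% to 17.0% when each library was left out in turn, and was 17.7% with no filter, 15.5% with library totals and 14.8% with DESeq2 size factors. By reads in place of TPM the leading transcript held at least 50% of the gene in 82.4% of genes, against 70.1%, and was the same transcript in 90.4% of them. Of listed gene levels, 358 of 499 moved by over 1 SD under rescaling without mtDNA-encoded genes. With the annotated length 189 of 514 did so, and with TMM factors 0 of 514. With any library left out the count was also 0 of 514, but this was fixed by arithmetic. Leaving out 1 library cannot shift a mean by over 1 SD of the full set. The count therefore cannot show whether levels depend on replicate 2. Of exon inclusions, 6 of 19 moved with protein-coding transcripts only. Of pair ratios, 3 of 26 moved with the annotated length, and none of the 26 changed its order.

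Depth limits coding nuclear genes at 10 to 100 TPM little, as counting gave them a median CV of 1.53%. Levels under 0.1 TPM rest on few reads, and so do some short genes above 10 TPM. For RNA5-8SN3, at a mean of 10.6 TPM, the CV from counting was 22.7%. Cell counts and purity were not measured, so no level is a level per neuron. TPM is a share, so a gene can be lower in replicate 2 because mtDNA-encoded transcripts took more of the total.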

Other observations

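Several further groups of genes were present and are given as values. The Notch ligand DLL3 of newborn neurons averaged 143 ± 47.4 TPM, the helix-loop-helix factor HES6 52.6 ± 21.6 TPM and LIN28B, an RNA-binding protein of embryonic cells, 60.4 ± 5.36 TPM. The mean of HES6 matches no library, as it was at 20.2 TPM in replicate 2 and at 61.5 to 65.5 TPM in the others. EMX2 and LHX2, known from the developing forebrain, averaged 28.9 ± 5.65 and 27.1 ± 4.19 TPM, with the midbrain factor OTX2 in the same order of size. The axonal molecules NFASC and L1CAM averaged 80.6 ± 12.6 and 82.8 ± 13.6 TPM, and the netrin receptors NEO1 and DCC 104 ± 15.9 and 49.0 ± 5.24 TPM.

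Genes of lipid synthesis were high beside those of energy supply: FASN, the fatty acid synthase, averaged 241 ± 48.5 TPM and the desaturase SCD 235 ± 39.6 TPM. The acid-sensing channel ASIC1 averaged 66.1 ± 6.76 TPM and the endosomal chloride transporter CLCN3 63.0 ± 4.77 TPM. The ganglionic nicotinic cluster of CHRNA3 also held CHRNA5 at 7.66 ± 0.823 TPM and CHRNB4 at 6.64 ± 1.04 TPM. Among secreted peptides, VGF averaged 12.1 ± 2.56 TPM and NPPC, the C-type natriuretic peptide, 10.2 ± 1.83 TPM. These genes were chosen after their values had been seen.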
